A study of Mus musculus with 14 samples.

Results

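Xbp1 and 9 genes of the endoplasmic reticulum (ER) folding machinery were followed in mouse intestinal organoids that had lost Apc, with and without the transcription factor Prox1. The genes were Xbp1, Hspa5, Hsp90b1, Dnajb9, Sdf2l1, Herpud1, Pdia4, Pdia6, Calr and Creld2. They were taken by symbol from the probe annotation, which gave 15 probes for the 10 genes among the 45281 probes deposited. All 15 passed the filter on dim probes, which kept 26342 probes. Xbp1, Hspa5, Hsp90b1, Sdf2l1 and Pdia4 had 1 probe each, and the other genes had a brighter and a dimmer probe.

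Organoids are crypt-derived epithelial cultures that form small hollow bodies in a gel matrix, and these came from C57Bl mice 2 to 3 months old. All of them carried floxed Apc and a tamoxifen-inducible Cre under the promoter of villin, a gene of the intestinal epithelium, and Apc was deleted in the controls as well. The Apc-deleted group carried floxed Apc alone, and the Apc-Prox1-deleted group carried floxed Prox1 in addition. Tamoxifen was given for 2 days, organoids that grew without the Wnt agonist R-Spondin1 were selected for 5 days, and RNA was taken 7 days after tamoxifen. Arrays were run in 2 series. Of the 10 libraries compared, series 1 held 4 from the Apc-deleted and 2 from the Apc-Prox1-deleted genotype, while series 2 held 2 per genotype. A further 4 entries were left out because they held 2 arrays deposited under conflicting labels. The labels do not say whether the libraries came from separate animals or cultures, so the replicate spread behind each p-value may be technical in part or in whole.

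Proteins that are to be secreted or placed in membranes fold in the ER with the help of chaperones, disulfide isomerases and a disposal route for misfolded chains. When folding falls behind, the sensors IRE1, ATF6 and PERK start the unfolded protein response. IRE1 splices the Xbp1 mRNA into the form that encodes an active transcription factor, which, with ATF6, raises chaperone and disposal genes. In the mouse intestine Xbp1 is known for its need in Paneth and goblet cells, whose secretory load is high.

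The promoters of these genes are known for ER stress elements, the sequences that XBP1 and ATF6 act through. The promoters of Xbp1 and Herpud1, whose levels were lower in series 1, are shown beside those of Hsp90b1, Calr and Creld2, whose levels did not pass the test. Each is the 220 bases before the transcription start, 5′ to 3′ on the gene's strand, from RefSeq on build GRCm38.p6. Xbp1 is chr11:5520421-5520640 (+ strand), Herpud1 chr8:94386209-94386428 (+ strand) and Hsp90b1 chr10:86705445-86705664 (- strand). Calr is chr8:84846932-84847151 (- strand) and Creld2 chr15:88819426-88819645 (+ strand). Capitals mark the ends of each element found.
Xbp1: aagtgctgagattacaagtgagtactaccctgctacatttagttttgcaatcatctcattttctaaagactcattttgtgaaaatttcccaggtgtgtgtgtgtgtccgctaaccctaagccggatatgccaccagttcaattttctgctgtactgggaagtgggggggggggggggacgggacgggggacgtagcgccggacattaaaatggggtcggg
Herpud1: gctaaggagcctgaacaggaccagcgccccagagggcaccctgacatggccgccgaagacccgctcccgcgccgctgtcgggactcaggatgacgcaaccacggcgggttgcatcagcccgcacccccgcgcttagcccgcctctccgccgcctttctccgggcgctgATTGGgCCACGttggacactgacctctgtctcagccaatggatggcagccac
Hsp90b1: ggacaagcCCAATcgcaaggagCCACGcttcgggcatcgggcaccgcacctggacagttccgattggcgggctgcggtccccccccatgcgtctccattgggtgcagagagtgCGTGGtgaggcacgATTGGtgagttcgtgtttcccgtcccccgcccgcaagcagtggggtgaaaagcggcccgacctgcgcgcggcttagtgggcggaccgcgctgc
Calr: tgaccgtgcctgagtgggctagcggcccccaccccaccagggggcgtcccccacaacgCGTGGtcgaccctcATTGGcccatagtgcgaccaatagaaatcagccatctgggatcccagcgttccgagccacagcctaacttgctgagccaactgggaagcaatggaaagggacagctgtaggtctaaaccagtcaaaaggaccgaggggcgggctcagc
Creld2: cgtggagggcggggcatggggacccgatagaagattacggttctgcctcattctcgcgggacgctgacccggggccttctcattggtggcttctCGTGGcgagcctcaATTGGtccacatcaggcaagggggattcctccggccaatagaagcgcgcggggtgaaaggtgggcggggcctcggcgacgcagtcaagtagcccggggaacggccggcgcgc

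Both strands of the 250 bases upstream were searched for all 10 genes. The ER stress element was taken as CCAAT and CCACG with 9 bases between them. It was present in 5 genes. In Hspa5 it lay 65 to 47 bases before the start and in Pdia6 98 to 80. Hsp90b1 held a pair of elements, at 212 to 194 and, on the reverse strand, at 107 to 89. In Calr it lay at 162 to 144 and in Creld2 at 126 to 108, both on the reverse strand. The second form of the element, ATTGG and CCACG with 1 base between, was found only in Herpud1 among the 10, at 52 to 42. Xbp1, Dnajb9, Sdf2l1 and Pdia4 held neither form in this window. The element TGACGTGG, to which XBP1 also binds, was found in 0 of the 10. Over all 32851 promoters in the table, the 3 elements were present in 0.113%, 0.0304% and 0.563%. A match is a description of the letters and not a site shown to be bound.

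**Figure D1:**
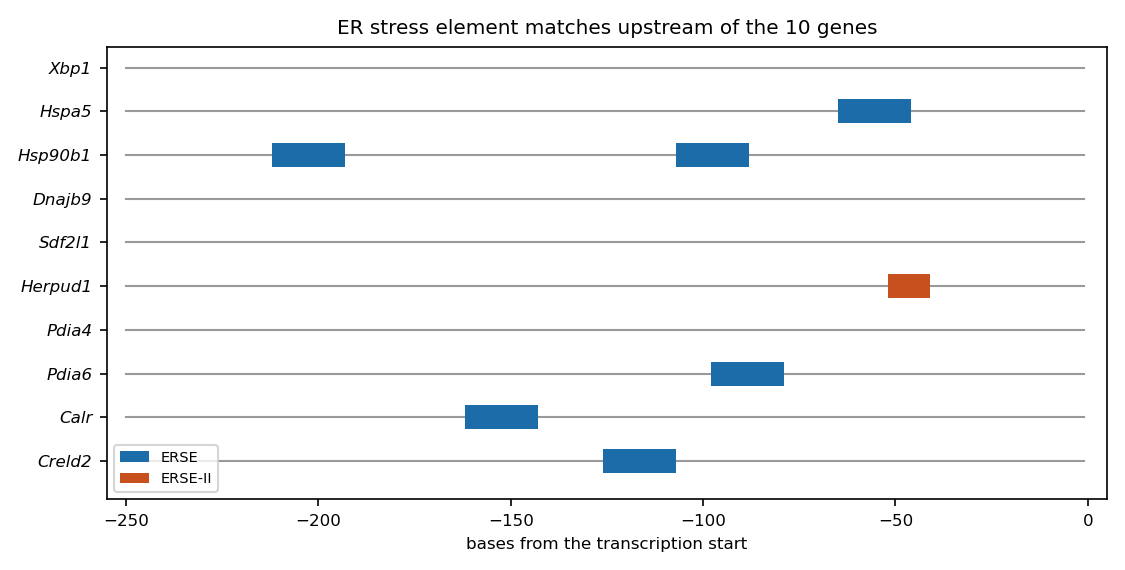
Positions of ER stress element matches in the 250 bases before the transcription start of each of the 10 genes. The horizontal axis is the distance from the start in bases, blue boxes are the element with 9 bases between its ends and the orange box is the form with 1. Blue boxes stand in 5 genes, the orange box in Herpud1, and 4 genes have none.

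Levels are log2 array signals recovered from the deposited ratios. The median of an array was 6.79 and the 1st percentile 6.55, so probes near these values lie at the floor and their differences are understated. The targeted gene Prox1 averaged 9.81 ± 0.47 (SD, n = 4) in Apc-deleted and 8.07 ± 0.31 (SD, n = 2) in Apc-Prox1-deleted libraries of series 1. In series 2 it averaged 10.48 ± 0.61 and 9.09 ± 0.62 (SD, n = 2 each), and over both series the difference was -1.59 log2 (SE 0.22, limma adjusted p = 0.000185). The Apc probe averaged between 7.12 and 7.53 in the 4 groups. Xist, which is expressed in female cells, averaged 9.84 ± 0.39 in the Apc-deleted libraries of series 1 and 6.65 to 6.68 in the other 3 groups. In series 1 the sex of the animals and the genotype therefore cannot be told apart. The fit over both series takes in these libraries, and Xist differed there by -1.8 log2 (SE 0.41, limma adjusted p = 0.00747). Differences over both series carry this limit as well. The nearest library of each of the 10, by correlation across probes (r at least 0.9901), was one of the same group. In these bulk samples, fewer cells of a type and less RNA per cell cannot be told apart.

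Xbp1, the transcription factor that IRE1 activates, was lower in series 1 where Prox1 had been deleted. Its level was 11.88, 11.56, 11.70 and 11.70 in the Apc-deleted libraries and 11.10 and 10.91 in the Apc-Prox1-deleted libraries. The highest Apc-Prox1-deleted library was below the lowest Apc-deleted library. In series 2 the level was 11.41 and 11.37 in the Apc-deleted libraries and 10.68 and 11.32 in the Apc-Prox1-deleted libraries. Those groups did not overlap either, but Apc-Prox1-deleted replicate 3 was nearly level with the controls and replicate 1 was well below them. The difference was -0.71 log2 in series 1 (SE 0.17, 95% interval -1.07 to -0.34, limma adjusted p = 0.0146), a level 1.63-fold lower. In series 2 it was -0.39 (SE 0.20, -0.81 to 0.03, limma adjusted p = 0.343). Without Apc-Prox1-deleted replicate 1 of series 2 it was -0.067, and without replicate 3 it was -0.71, neither past the test. Over both series Xbp1 fell by 0.57 log2 (SE 0.13, limma adjusted p = 0.00789), or 1.48-fold. The 2 series did not differ detectably, by 0.32 (SE 0.26, limma adjusted p = 0.906). Without Apc-Prox1-deleted replicate 1 or replicate 2 of series 1 the call in series 1 was lost (limma adjusted p = 0.0783 and 0.236), at -0.80 and -0.61 log2. Without replicate 2 the call over both series was lost as well, at -0.49 (limma adjusted p = 0.0606). Where the probe lies relative to the spliced stretch of the mRNA was not analysed here.

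Herpud1 encodes an ER membrane protein that helps assemble the machinery for degrading misfolded proteins, and it was lower by both of its probes in series 1. The brighter probe read 11.31, 11.28, 11.96 and 11.67 in the Apc-deleted libraries of series 1 and 10.67 and 10.80 in the Apc-Prox1-deleted ones. The dimmer probe read 10.63, 10.64, 11.46 and 11.01 against 9.97 and 10.15. Both Apc-Prox1-deleted libraries were below all 4 Apc-deleted libraries on each probe. In series 2 the brighter probe read 11.28 and 10.43 in the Apc-deleted libraries and 10.55 and 10.65 in the others, and the dimmer probe 9.94 and 9.02 against 9.22 and 8.94. The groups overlapped, with Apc-deleted replicate 1 high and replicate 3 at the level of the Apc-Prox1-deleted libraries.

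The brighter Herpud1 probe fell by 0.82 log2 in series 1 (SE 0.22, limma adjusted p = 0.0269), or 1.77-fold, and the dimmer probe by 0.87 (SE 0.25, limma adjusted p = 0.035), or 1.83-fold. In series 2 the differences were -0.26 (SE 0.25, limma adjusted p = 0.692) and -0.39 (SE 0.29, limma adjusted p = 0.55). Over both series they were -0.58 (SE 0.18, limma adjusted p = 0.0415) and -0.67 (SE 0.19, limma adjusted p = 0.0306). The probes read the same RNA and are not independent of each other. These calls were close to the threshold. The series 1 call of the brighter probe was lost without Apc-Prox1-deleted replicate 1 or 2 of that series (limma adjusted p = 0.234 and 0.158) and without Apc-deleted replicate 3 or 4 (limma adjusted p = 0.0619 and 0.0693). The dimmer probe lost its call without the same 4 libraries, at limma adjusted p of 0.283, 0.169, 0.0747 and 0.0778. With the replicate number as a block the brighter probe was at -0.56 in series 1 (limma adjusted p = 0.171) and the dimmer at -0.58 (limma adjusted p = 0.131). Apc-deleted replicates 3 and 4 of series 1 share their number with no Apc-Prox1-deleted library kept, so they add nothing to the blocked difference. In series 2 the difference turned to 0.17 and 0.066 on the brighter and dimmer probe without Apc-deleted replicate 1.

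Over both series the brighter Herpud1 probe lost its call without any one of 6 libraries, namely Apc-Prox1-deleted replicates 1 and 2 and Apc-deleted replicates 3 and 4 of series 1 and replicate 1 of each genotype in series 2, at limma adjusted p of 0.0677 to 0.183. The dimmer probe lost it without any one of 5, namely Apc-Prox1-deleted replicates 1 and 2 and Apc-deleted replicate 4 of series 1, and Apc-deleted replicate 1 and Apc-Prox1-deleted replicate 3 of series 2, at limma adjusted p of 0.0536 to 0.143. The block left -0.41 (limma adjusted p = 0.161) and -0.49 (limma adjusted p = 0.0617).

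Of the 15 probes, 3 passed the test in series 1, all of them lower: the Xbp1 probe and both Herpud1 probes. Of all probes tested, 8.32% passed in series 1 and 4.32% passed with a lower level. In series 2 none of the 15 passed by limma, against 4.12% of all probes. There 1 of the 15 had an unadjusted limma p under 0.05, as did 4381 of the 26342 probes tested. Over both series the same 3 probes passed, against 12.7% of all probes in either direction and 6.79% lower. The median difference of the 15 probes was -0.02 log2 in series 1, -0.03 in series 2 and -0.03 over both, and that of all probes lay between 0.002 and 0.005. No probe of the 10 genes passed the limma test of a difference between the series, where 0.562% of all probes did. At an unadjusted p under 0.05 it was 1 of the 15 and 1896 of the 26342 probes. By ranges alone, the series 1 groups did not overlap for 7 of the 15 probes, against 29.7% of all probes in either direction. Of these 7, 6 were lower: the Xbp1 and Pdia4 probes and both probes of Herpud1 and Dnajb9, the dimmer Dnajb9 probe at the floor. The share of all probes that were apart and lower was not taken. In series 2, with 2 libraries a group, 5 of the 15 did not overlap, against 41.0% of all probes. The series 1 groups in which these calls were made also differed in Xist, by -3.16 log2, while the series 2 groups differed by 0.02. The fit over both series, with the same 3 calls, had Xist at -1.8.

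**Figure D2:**
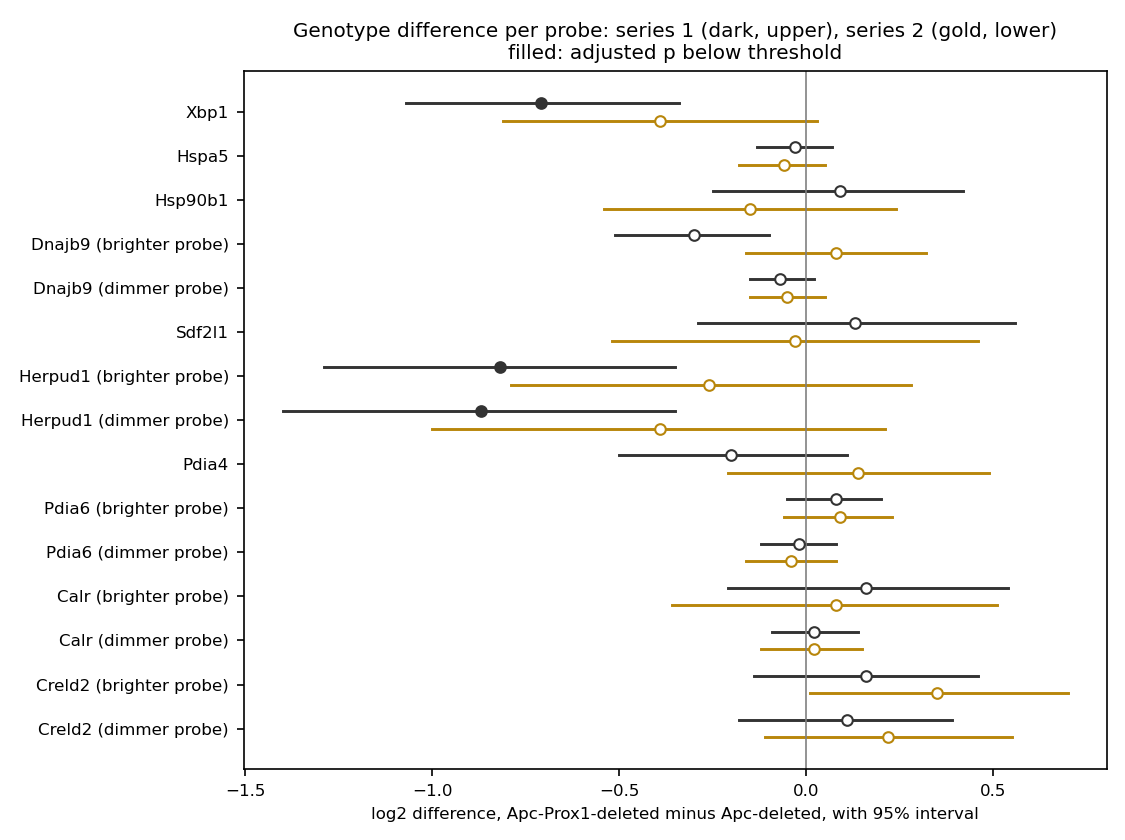
Difference between Apc-Prox1-deleted and Apc-deleted libraries for each of the 15 probes, on a log2 axis with 95% intervals, for series 1 (dark, upper) and series 2 (gold, lower). Filled points passed limma's test across all probes. The filled points are the Xbp1 probe at -0.71 and the Herpud1 probes at -0.82 and -0.87, all in series 1, and no series 2 point is filled.

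Hspa5 encodes BiP, the HSP70 chaperone of the ER that also holds the stress sensors inactive. Its probe read 6.88, 6.84, 6.81 and 6.86 in the Apc-deleted and 6.81 and 6.83 in the Apc-Prox1-deleted libraries of series 1. In series 2 it read 6.79 and 6.86 against 6.72 and 6.80. The groups overlapped in both series, and all 10 values lay close to the array median, where this probe could show little change. The difference over both series was -0.04 log2 (SE 0.04, interval -0.12 to 0.03, limma adjusted p = 0.511).

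Hsp90b1 encodes GRP94, the HSP90 of the ER. It read 10.07, 10.43, 10.25 and 10.39 in Apc-deleted and 10.45 and 10.29 in Apc-Prox1-deleted libraries of series 1, and 9.83 and 9.60 against 9.50 and 9.63 in series 2. The genotypes overlapped in both series, and every series 2 library was below every series 1 library. The difference over both series was -0.01 (SE 0.12, limma adjusted p = 0.962), with an interval of -0.26 to 0.23 that leaves out a change of the size seen for Xbp1.

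Calr encodes calreticulin, a calcium-binding chaperone for glycoproteins. Its brighter probe read 9.05, 8.93, 8.42 and 8.50 in Apc-deleted and 8.89 and 8.88 in Apc-Prox1-deleted libraries of series 1, and 9.61 and 9.78 against 9.71 and 9.83 in series 2. The genotypes overlapped, and all series 2 libraries were higher than all series 1 libraries. The difference over both series was 0.13 (SE 0.13, interval -0.15 to 0.40, limma adjusted p = 0.625). The dimmer probe ranged from 6.59 to 6.91, at the floor, with a difference of 0.02 (limma adjusted p = 0.843).

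Dnajb9, also called ERdj4, is an HSP40 co-chaperone of BiP. Its brighter probe read 7.79, 7.68, 7.78 and 7.67 in Apc-deleted and 7.38 and 7.47 in Apc-Prox1-deleted libraries of series 1. In series 2 it read 7.04 and 6.77 against 7.04 and 6.92. The groups were apart in series 1 and overlapped in series 2, where the probe was near the floor. The difference was -0.30 (SE 0.10, interval -0.51 to -0.10, limma adjusted p = 0.0691) in series 1 and 0.08 (SE 0.11, limma adjusted p = 0.809) in series 2. The test of the difference between the series gave 0.38 (SE 0.15, unadjusted p = 0.0209, limma adjusted p = 0.527). The dimmer probe ranged from 6.68 to 6.83, and its difference over both series was -0.06 (limma adjusted p = 0.199).

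Sdf2l1 is a partner of BiP and its co-chaperones that helps keep unfolded chains from aggregating. It read 8.70, 8.0, 7.70 and 7.96 in Apc-deleted and 8.32 and 8.12 in Apc-Prox1-deleted libraries of series 1, and 9.07 and 9.28 against 9.18 and 9.10 in series 2. The genotypes overlapped in both series, Apc-deleted replicate 1 of series 1 was high in its group, and series 2 was higher than series 1 throughout. The difference over both series was 0.06 (SE 0.15, interval -0.26 to 0.38, limma adjusted p = 0.862).

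Pdia4 and Pdia6 encode disulfide isomerases, which form and rearrange the disulfide bonds of folding chains. Pdia4 read 8.81, 8.88, 8.99 and 8.71 in Apc-deleted and 8.67 and 8.64 in Apc-Prox1-deleted libraries of series 1, and 9.04 and 8.89 against 8.94 and 9.27 in series 2. The Pdia4 groups were narrowly apart in series 1, with the Apc-Prox1-deleted libraries lower, and overlapped in series 2. The Pdia4 difference was -0.20 (limma adjusted p = 0.531) in series 1, 0.14 (limma adjusted p = 0.76) in series 2 and -0.05 (SE 0.11, limma adjusted p = 0.84) over both. The Pdia6 probes ranged from 6.84 to 7.12 and from 6.58 to 6.94, near the floor, with differences over both series of 0.08 (SE 0.04, limma adjusted p = 0.27) and -0.03 (SE 0.04, limma adjusted p = 0.699).

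Creld2, an ER protein with thioredoxin-like motifs that is induced by ER stress, had the largest positive difference of the 10 genes over both series. Its brighter probe read 8.42, 8.51, 8.24 and 8.40 in Apc-deleted and 8.52 and 8.58 in Apc-Prox1-deleted libraries of series 1, and 8.27 and 8.70 against 8.86 and 8.81 in series 2. The Apc-Prox1-deleted libraries were above the Apc-deleted libraries in both series, narrowly so in series 1 (8.52 against 8.51). The difference was 0.16 (SE 0.14, limma adjusted p = 0.635) in series 1, 0.35 (SE 0.16, limma adjusted p = 0.291) in series 2 and 0.24 over both (SE 0.11, unadjusted p = 0.0377, limma adjusted p = 0.166). It did not pass the test. The dimmer probe read 8.56, 8.40, 8.18 and 8.15 against 8.44 and 8.42 in series 1, and 7.94 and 8.08 against 8.23 and 8.23 in series 2. Its groups overlapped in series 1 and were apart in series 2, and its difference over both series was 0.16 (SE 0.10, limma adjusted p = 0.372).

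**Figure D3:**
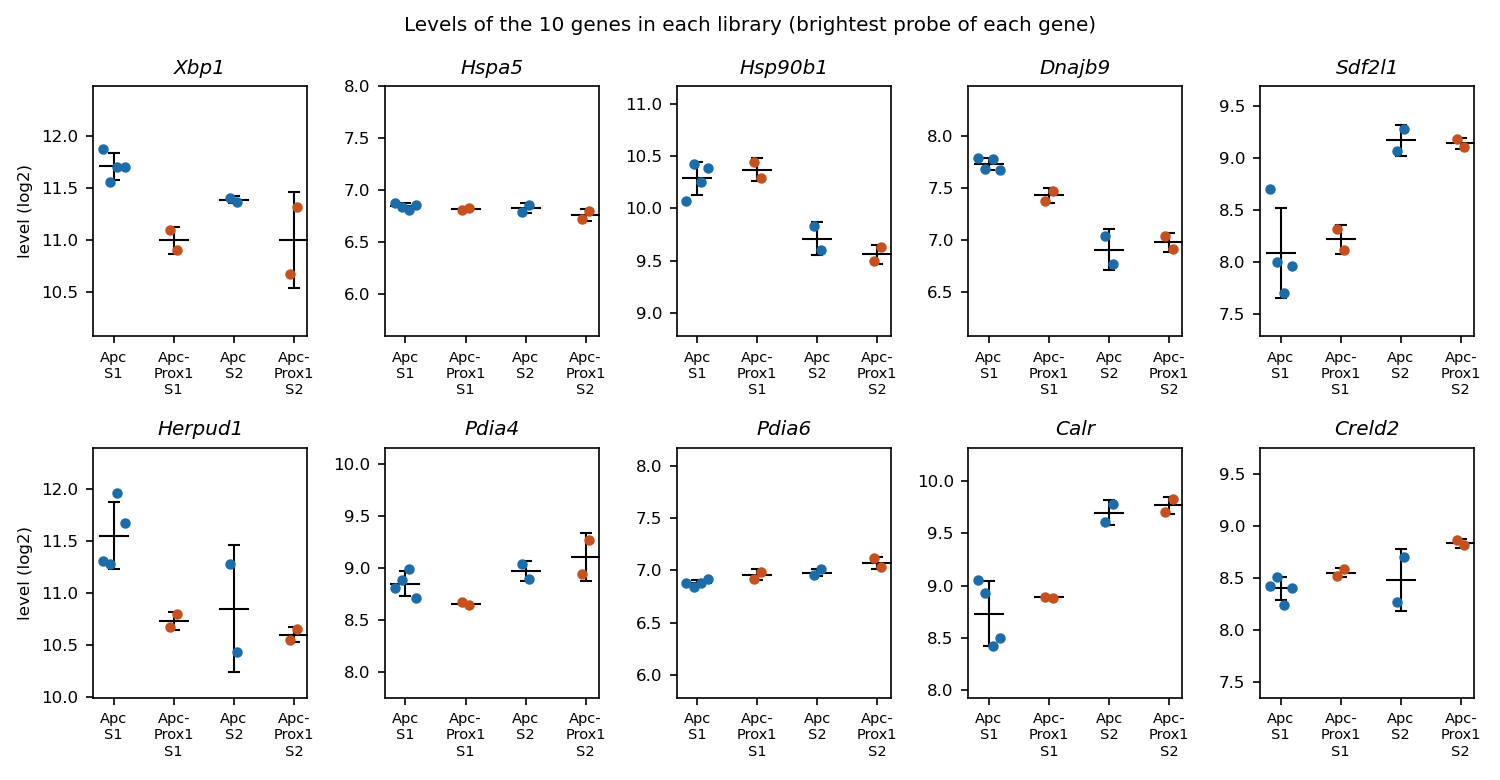
Level of each of the 10 genes (brightest probe) in the 10 libraries, on a log2 axis; points are libraries, bars the group mean and SD, blue Apc-deleted and orange Apc-Prox1-deleted, S1 and S2 the series. Within series 1 the orange points lie below all blue points for Xbp1 (11.10 and 10.91 against 11.56 and above), Herpud1, Dnajb9 and Pdia4, of which Xbp1 and Herpud1 passed the test, and Hsp90b1, Sdf2l1 and Calr differ between the series more than between the genotypes.

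Over the 10 libraries, with the mean of each series subtracted, the genes closest to Xbp1 by Pearson correlation were Pex11g (0.986), Ppp1r26 (0.984), 2210407C18Rik (0.979), Gstz1 (0.976) and Tmem143 (0.976), and none of them is a member. Among the members Herpud1 correlated at 0.674, Hspa5 at 0.648, Pdia4 at 0.517 and Dnajb9 at 0.503. By that correlation they ranked 1736, 1918, 2810 and 2911 among the 13474 genes tested, so many genes outside the 10 were closer to Xbp1. Sdf2l1 (-0.001), Hsp90b1 (-0.051) and Calr (-0.193) had no clear relation to Xbp1. Creld2 (-0.579) and Pdia6 (-0.815) ran the other way. The Hspa5 and Pdia6 probes lay near the floor, which limits what their correlations can show. The libraries hold both genotypes, so genes that differ between them rise or fall with Xbp1 here, and the values are a description of 10 libraries.

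Other genes of ER folding were read from lists of known members, with the brightest probe of each gene. Over both series 7.09% of the 13474 genes tested were higher and 8.7% lower, and the median difference of all genes was 0.002 log2. At an unadjusted limma p under 0.05, 6574 of the 26342 probes passed over both series, in either direction. Among 10 measured ER chaperones and folding helpers outside the 10 genes, 3 were lower and 1 higher, with a median of -0.29. Cnpy2, a saposin-like ER protein, fell by 0.65 log2 (SE 0.10, limma adjusted p = 0.000477), with group means of 10.14 and 9.50 in series 1, and 9.47 and 8.79 in series 2. Sil1, the nucleotide exchange factor of BiP, fell by 0.50 (SE 0.09, limma adjusted p = 0.00192), and Ppib, an ER prolyl isomerase, by 0.40 (SE 0.12, limma adjusted p = 0.0412). Serpinh1, the collagen chaperone, rose by 0.23 (SE 0.06, limma adjusted p = 0.0175) near the floor. Serpinh1 was at 0.34 in series 1 (limma adjusted p = 0.00364) and at 0.08 in series 2 (limma adjusted p = 0.699). Of 10 genes of oxidative folding 2 were lower and none higher by limma (2 and 0 at an unadjusted p under 0.05), with a median of -0.08. They were Txndc5, a disulfide isomerase (-0.54, SE 0.12, limma adjusted p = 0.00799), and Prdx4, the ER peroxiredoxin (-0.43, SE 0.12, limma adjusted p = 0.0204).

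Of 11 genes of ER-associated degradation, the disposal route, 2 were lower, with a median of 0.04. These were Edem2, which trims glycans of misfolded proteins (-0.52, limma adjusted p = 0.0226), and Erlec1, an ER lectin (-0.39, limma adjusted p = 0.0484). Edem2 was at -0.75 in series 1 (limma adjusted p = 0.00988), where Xist also separates the genotypes. In series 2 Edem2 was at -0.2 (limma adjusted p = 0.68), and none of the 11 genes was lower there by limma. Of 28 genes of the translocon, signal peptidase and glycosylation, 1 was higher and 1 lower, with a median of 0.01. Srp9, a subunit of the signal recognition particle, rose by 1.03 (SE 0.12, limma adjusted p = 3.96e-05), and Srpr, its receptor subunit, was the lower one (-0.53, limma adjusted p = 0.0436). The Srpr series differed, with -0.06 in series 1 and -1.16 in series 2 (limma adjusted p of the difference = 0.0128), so its value over both describes neither. Of 15 genes of ER to Golgi transport, Tmed10, a cargo receptor, was lower (-0.43, limma adjusted p = 0.0183) and the median was 0.05. Among 10 stress sensors and their processing proteases 1 passed, Creb3, an ER-anchored transcription factor (0.46, SE 0.12, limma adjusted p = 0.0183). The median there was 0.05. Ern1, which encodes IRE1, was at -0.10 (limma adjusted p = 0.111), with group means of 6.72 to 6.98, near the floor. Ern2, its brighter paralogue on that list, was at 0.16 over both series (SE 0.24, limma adjusted p = 0.755). Ern2 was at -0.45 in series 1 (limma adjusted p = 0.264) and at 0.96 in series 2, where it passed (limma adjusted p = 0.038). Its difference between the series did not pass (limma adjusted p = 0.076).

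Among 10 targets of PERK and ATF4, the other arm of the stress response, 3 were lower and 1 higher, with a median of -0.23. Over both series Chac1, a glutathione-degrading enzyme, fell by 1.53 (SE 0.34, limma adjusted p = 0.00575). Trib3, a pseudokinase, fell by 1.25 (SE 0.26, limma adjusted p = 0.00448). Ddit3, the transcription factor CHOP, fell by 0.77 (SE 0.18, limma adjusted p = 0.00892). Within series 1, where Xist also separates the genotypes, they were at -1.89, -1.7 and -0.87 (limma adjusted p = 0.00811, 0.00154 and 0.0285). Series 2 gave -1.06, -0.64 and -0.64, and none passed (limma adjusted p = 0.281, 0.389 and 0.237). No difference between the series passed for these 3 (limma adjusted p = 0.894, 0.622 and 0.971). Apc-deleted levels of Chac1 varied widely, with extremes of 9.48 and 11.58 in series 1. Sesn2, a stress-inducible regulator of growth signalling, rose by 0.36 over both series (SE 0.10, limma adjusted p = 0.0281). Among 12 heat shock proteins of the cytosol and mitochondria, which fold proteins outside the ER, 5 were higher and none lower by limma (7 and 0 at an unadjusted p under 0.05), with a median of 0.19. The small heat shock protein Hspb1 rose by 0.56 (SE 0.10, limma adjusted p = 0.00116) and Hspa1a by 0.58 (SE 0.12, limma adjusted p = 0.00438). Both were dim, Hspb1 at group means of 7.11 to 7.79 and Hspa1a near the floor in the Apc-deleted groups (6.93 and 6.85). The Apc-Prox1-deleted libraries of series 2 read 7.09 and 7.99 for Hspa1a. The mitochondrial chaperonins Hspd1 (0.45, limma adjusted p = 0.0258) and Hspe1 (0.30, limma adjusted p = 0.0374) turned to -0.059 and -0.042 with all 14 entries as labelled.

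Among the 20 alternative analyses, Cnpy2, Txndc5 and Srp9 passed in every one. The calls of Ppib and Erlec1 ended in 11 of 20, that of Srpr in 15, those of Prdx4 and Sesn2 in 6 and those of Edem2, Tmed10 and Creb3 in 5. Leaving out 1 library ended 8 of those for Ppib, 7 for Srpr, 6 for Erlec1, 4 each for Prdx4, Sesn2, Edem2 and Tmed10, and 3 for Creb3. Chac1 and Trib3 lost their calls in 2 of 20, with the ratios as deposited and with a robust variance prior (limma adjusted p up to 0.68 and 0.542), and Ddit3 and Serpinh1 lost theirs in 3. Sil1 lost its call with all 14 entries as labelled (limma adjusted p = 0.183). Hspe1 and Hspd1 lost theirs in 10 and 7 of 20, and Hspb1 in none of the 20 run.

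**Figure D4:**
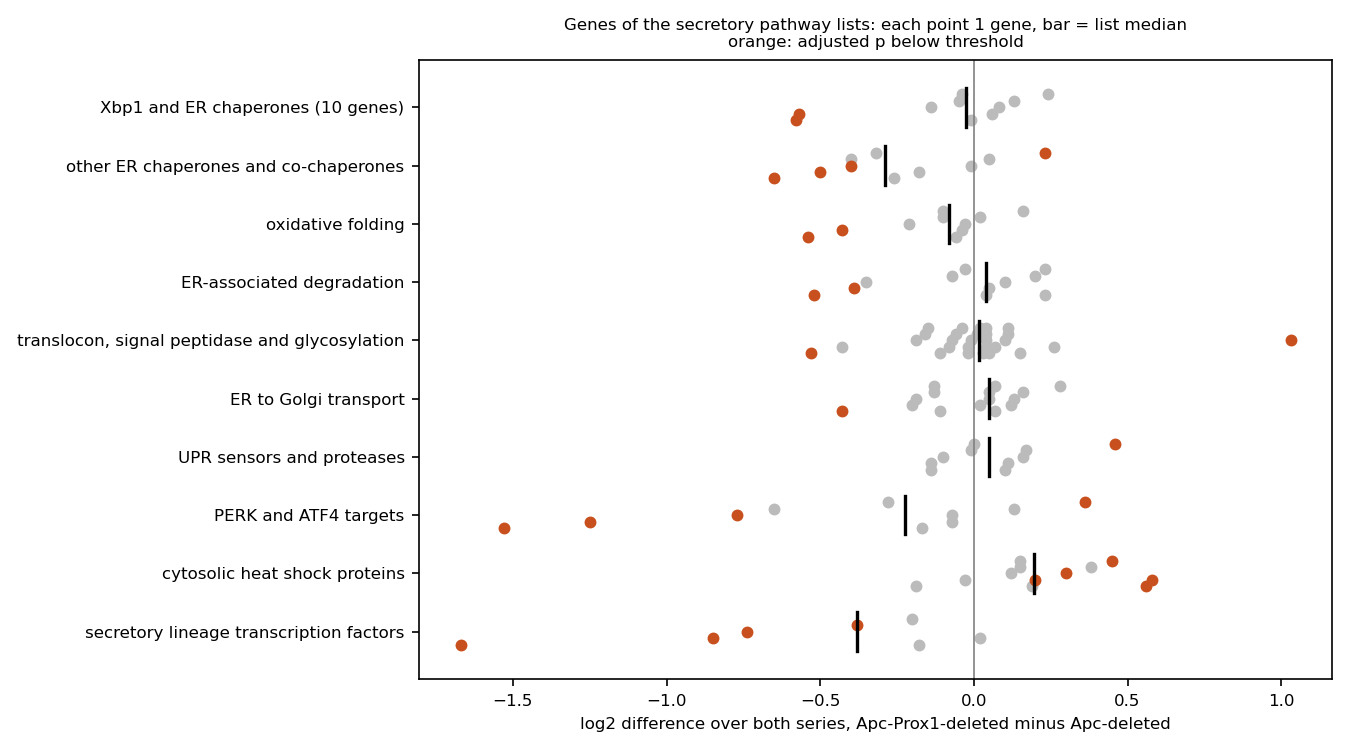
Difference between Apc-Prox1-deleted and Apc-deleted libraries over both series for each measured gene of the lists (points) on a log2 axis, with the list median as a bar and genes past limma's test in orange. The 10 genes have a median of -0.03 with Xbp1 and Herpud1 in orange at -0.57 and -0.58, the other ER chaperones lie at -0.29, and the cytosolic heat shock proteins at 0.19.

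Transcription factors of the secretory lineage and markers of cell types were read in the same libraries. Of 7 measured transcription factors of the secretory lineage 4 were lower over both series, with a median of -0.38. Neurog3, which starts the enteroendocrine fate, fell by 1.67 (SE 0.25, limma adjusted p = 0.000351). Bhlha15, a factor that matures secretory cells and is known in the mouse as a target of XBP1, was at -0.85 over both (SE 0.16, limma adjusted p = 0.00192). Its fall lay mainly in series 1, where Xist also separates the genotypes, at -1.28 (limma adjusted p = 1.85e-05) against -0.28 (limma adjusted p = 0.425) in series 2, and the difference between the series passed (limma adjusted p = 0.0433). Foxa3 fell by 0.74 (SE 0.11, limma adjusted p = 0.000245) and Sox9, needed for Paneth cells, by 0.38 (SE 0.09, limma adjusted p = 0.0128).

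Of 15 enteroendocrine markers, 11 were lower in series 1 and 4 in series 2, where 5.94% and 3.08% of all genes were. At an unadjusted limma p under 0.05, 5295 of the 26342 probes passed in series 1 and 4381 in series 2, in either direction. Of 12 Paneth cell markers 6 were lower in series 1 and 1 in series 2. Of 9 goblet cell markers 4 were lower in series 1 and none in series 2 by limma (6 and 0 at an unadjusted p under 0.05). In series 2 the goblet median was 0.10, and 2 of the 9 were higher at an unadjusted p under 0.05. Muc2, the main intestinal mucin, was at -0.83 in series 1 and 0.61 in series 2, and that difference passed (limma adjusted p = 0.00893). Of 9 absorptive enterocyte markers 6 were lower in series 1 and none in series 2 by limma (7 and 0 unadjusted). Over both series 8 enteroendocrine and 3 Paneth markers were lower. Ghrl, which encodes ghrelin, fell by 1.73 (SE 0.22, limma adjusted p = 6.34e-05), and Defa26, a Paneth cell defensin, fell by 1.2 (SE 0.11, limma adjusted p = 5.42e-06). No goblet marker passed over both series by limma, 3 had an unadjusted p under 0.05, and the brightest, Spink4 (-0.69) and Zg16 (-0.64), had limma adjusted p of 0.0532 and 0.0705. Of the enterocyte markers Apob was higher and Sis and Lct lower over both series. Sis was at -2.48 in series 1 and -0.15 in series 2 (limma adjusted p of the difference = 0.00147). The Lct probe lay near the floor, at group means of 6.68 to 6.98, and lost its call in 10 of 19 alternatives. Series 1, where Xbp1 and Herpud1 passed, was also the series with more marker calls in each of these 4 lists, and it had the larger control group.

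The log2 of the summed enteroendocrine markers was 12.60 to 13.08 for Apc-deleted and 11.40 to 11.84 for Apc-Prox1-deleted libraries of series 1, and 12.21 to 12.64 against 11.71 to 12.10 in series 2. The Paneth markers summed to 16.38 to 16.50 against 15.81 to 16.22 in series 1 and 16.04 to 16.29 against 15.93 in both libraries in series 2. The goblet markers summed to 13.36 to 13.93 against 12.57 to 13.10 in series 1 and 12.54 to 12.58 against 12.52 to 12.59 in series 2. For enterocyte markers the sums were 12.44 to 12.89 against 11.18 to 11.40 in series 1, and 10.86 to 11.19 against 10.77 to 11.68 in series 2. The sums of goblet and enterocyte markers were apart in series 1 and overlapped in series 2, and those of enteroendocrine and Paneth markers were apart in both series.

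Among the defining markers, Lyz1 of Paneth cells averaged 14.39 to 14.76 in the 4 groups and Vil1 of the epithelium 10.17 to 10.61. Cdh1 averaged 8.74 to 10.21, and the Epcam probe 6.67 to 6.78, at the floor. Neurod1 (6.70 to 6.75) and Mmp7 (6.59 to 6.92) were at the floor as well, and Chga averaged 7.22 to 7.95. Tff3 of goblet cells averaged 11.06 and 10.85 in series 1 and 8.35 and 8.77 in series 2, and Muc2 9.74 and 8.91 against 7.59 and 8.20. The part of these cell types in the Xbp1 and Herpud1 differences was not tested. Of 7 epithelial markers the keratins Krt19 and Krt8 were higher over both series and Cdx1, an intestinal transcription factor, was lower (-0.40). Cdx1 lost its call in 7 of 20 alternatives, 5 of them with 1 library left out, at limma adjusted p up to 0.15. Krt8 lost its call in 2 of 20. Of other cell types, Col1a2 and Dcn of fibroblasts, Ptprc of immune cells and Pecam1 and Cdh5 of endothelium averaged 6.70 to 6.88, at the floor. Acta2, also on the fibroblast list, averaged 7.35 in Apc-deleted and 7.34 in Apc-Prox1-deleted libraries of series 1. In series 2 Acta2 averaged 7.99 and 8.36, above the floor. Vim, on the fibroblast list, fell by 3.60 (SE 0.39, limma adjusted p = 2.18e-05), and it was the only one of 6 measured genes of that list to pass. Of 4 immune markers Laptm5 was higher and Cd79b lower, both near the floor. Of 8 endothelial markers Pdpn was higher, at 0.32 in series 1 and 1.39 in series 2 (limma adjusted p of the difference = 0.00754), and the 1 that was lower is Prox1 itself.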

How the data were processed

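RNA of mouse intestinal organoids was measured on Illumina bead arrays, 14 entries in all. The deposited value is a ratio: in each series a probe's ratios have a median of 1.0 and become steps of 0.01 when multiplied by 1 number, so they were read as log2 levels divided by the probe's median. The authors' background correction and normalization are not stated in any source used here, and the log base was taken from the range of the recovered values (6.35 to 15.23). Divisors were searched from 6.0 to 16.0, which recovered 45248 of 45281 probes and left out 33. In both series 5801 probes had 1 possible divisor, and otherwise the smallest was taken, so a multiple would give larger levels and differences. In 4000 simulated probes all settled ones (100.0%) were recovered exactly. The simulated probes were built from levels recovered with the smallest divisor, so the simulation could not test that choice. Xbp1, Herpud1, Hsp90b1, Sdf2l1, Pdia4, the brighter Calr probe and the brighter Creld2 probe had 1 divisor. The 28 value columns of the deposited non-normalized table have names that match no label and were not used.

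All 91 pairs of entries were compared, and 2 differed by at most 0.02 log2 at every probe. The first pair (0.0118) was replicate 4 of Apc-Prox1-deleted series 1 with replicate 2 of Apc-deleted series 2. The second (0.0143) was replicate 3 of Apc-Prox1-deleted series 1 with replicate 2 of the same genotype in series 2. The next closest pair differed by 1.1671. These 4 entries entered no comparison.

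Values were quantile normalized over the entries and fitted with limma 3.58.1 in R 4.3.3 (lmFit, eBayes with a variance trend, two-sided, Benjamini-Hochberg adjustment over all probes, threshold 0.05), after tests on simulated data. A probe was kept above the 50th percentile of the array in at least 3 of 10 libraries, which removed 18906. Comparisons within a series and their difference had 6 residual degrees of freedom, and the additive fit of genotype and series had 7. The number of arrays limits the precision. Probe names came from the platform annotation, in which 34885 probes had 1 gene symbol, 18 several and 10378 none; 34807 matched RefSeq by Entrez ID.

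Every member probe is described. From each other list the counts are given with up to 4 passing genes of smallest p, and a few further genes that a result or a cell type turns on. The 10 genes, the lists and the tests were chosen with earlier results of these data known. The alternatives were no quantile normalization, cyclic loess, the ratios as deposited, other filters, no variance trend, a robust prior, array weights, the replicate block, all 14 entries, 1 series alone and each library left out. Figures and tables were made with Python 3.11.15, pandas 2.3.3 and matplotlib 3.10.9.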

Additional observations from a re-analysis of the deposited data

Results flagged for a closer look

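The dimmer Calr probe read 6.78 in Apc-deleted replicate 3 of series 1, the highest of its group of 4, where the others read 6.60, 6.59 and 6.60. Its gap to the nearest library was large for the range of the group by Dixon's test. All 4 values lie at the floor of the array, and the brighter Calr probe read lowest in the same library, at 8.42. The 15 probes were tested in the only group of 4, and chance flags about 1 in 20 such groups.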

How the results depend on the processing

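The directions of Xbp1 and of both Herpud1 probes in series 1 and over both series were the same in every alternative run. The Xbp1 call held in 19 of 21 alternatives in series 1 and 19 of 20 over both. The brighter Herpud1 probe held in 14 of 21 and 9 of 20, and the dimmer in 13 of 21 and 11 of 20. The brighter Dnajb9 probe passed in series 1 in 5 of 20, at limma adjusted p of 0.00791 to 0.0317.

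In series 1, 2191 probes were called, 4610 with array weights and 740 to 2587 without 1 library. In series 2, 1085 were called, 393 without quantile normalization, 372 with cyclic loess, 360 with the ratios, 184 with all 14 entries, 568 with series 2 alone and 411 to 1262 without 1 library. Over both, 3353 were called, 5128 with array weights and 1916 to 3808 without 1 library. The difference between series had 148 calls, 59 with the ratios, 64 with the filter on all 10 libraries, 73 with no variance trend, 53 with all 14 entries and 66 to 172 without 1 library. Of the 15 probes, 3 were called in series 1, 1 with no variance trend and 0 to 3 without 1 library. Over both, 3 were called, 1 with the ratios, with no filter or with no variance trend, and 0 to 3 without 1 library. The cause of these shifts was not tested.

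With the replicate block, 1996 probes were called over both series and 229 for the difference between series, and 1 of the 15 probes was called in series 1 and 1 over both. The numbers were not shown to pair the libraries: deviations of same-numbered libraries correlated at -0.025 and 0.191 in series 1 and 0.091 in series 2. The block also takes Apc-deleted replicates 3 and 4 of series 1 out of the genotype difference, since no Apc-Prox1-deleted library kept has their number. Under the replicate block Sdf2l1 turned to -0.13 in series 1 and -0.079 over both, the brighter Calr probe to -0.10 and -0.013, and the dimmer Creld2 probe to -0.048 in series 1. None of these passed before by limma.

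With all 14 entries Hsp90b1 in series 1 turned to -0.27, Pdia4 over both to 0.003, the dimmer Creld2 probe in series 1 to -0.11, and Hspd1 and Hspe1 to -0.059 and -0.042. Leaving out 1 library also turned signs of differences that had not passed. The ranges in series 2 were -0.061 to 0.22 for the brighter Dnajb9 probe, -0.13 to 0.073 for Sdf2l1, -0.69 to 0.17 and -0.85 to 0.066 for the Herpud1 probes and -0.022 to 0.30 for Pdia4. They were -0.095 to 0.013 for the dimmer Pdia6 probe, and -0.012 to 0.16 and -0.068 to 0.098 for the Calr probes. In series 1 the dimmer Pdia6 probe ranged from -0.057 to 0.022. Over both series Hsp90b1 ranged from -0.081 to 0.047, Sdf2l1 from -0.014 to 0.17 and the dimmer Calr probe from -0.008 to 0.047.

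Counts of lower genes over both series ranged over the alternatives from 0 to 3 for ER-associated degradation, 0 to 2 for the translocon list and the stress sensors, 1 to 2 for oxidative folding and 0 to 1 for ER to Golgi transport. Counts of higher genes ranged from 0 to 1 for the stress sensors, other ER chaperones, ER-associated degradation, ER to Golgi transport and PERK and ATF4 targets, and from 1 to 2 for the translocon list. Further ranges were 0 to 4 for lower PERK and ATF4 targets, 2 to 7 for higher cytosolic heat shock proteins, 2 to 6 for lower Paneth markers, 0 to 3 for lower goblet markers, 5 to 12 for lower enteroendocrine markers and 1 to 7 for lower enterocyte markers. Epithelial markers ranged from 1 to 3 higher and 0 to 2 lower, immune markers from 0 to 1 in each direction and endothelial markers from 0 to 2 higher. The Hspa5, Pdia6, dimmer Dnajb9 and dimmer Calr probes lie at the floor of the arrays, which limits what they can show.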

Other observations

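The 2 arrays deposited under conflicting labels entered no comparison, and their levels as recovered within each series, before normalization across series, are given here. The array deposited as Apc-Prox1-deleted series 1 replicate 4 and as Apc-deleted series 2 replicate 2 read 11.50 and 10.58 for Xbp1, 11.25 and 10.33 for the brighter Herpud1 probe, 10.33 and 9.43 for Hsp90b1 and 9.33 and 8.51 for the brighter Creld2 probe. The array deposited as replicate 3 of series 1 and replicate 2 of series 2, Apc-Prox1-deleted in both labels, read 10.88 and 9.98 for Xbp1, 10.92 and 10.02 for the brighter Herpud1 probe, 9.74 and 8.88 for Hsp90b1 and 9.0 and 8.22 for the brighter Creld2 probe. The first value of each pair is on the scale of series 1 and the second on that of series 2.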
